A study of Mus musculus with 12 samples.

Results

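Translation initiation and elongation factors were followed across 12 RNA-seq libraries of Ba/F3 cells, a mouse line labelled as pro-B cells that normally depends on interleukin-3. They were taken by name from the count table: protein-coding genes whose symbols begin with Eif1 to Eif6, Eef1 or Eef2, leaving out the kinases named Eif2ak and Eef2k. This gave 81 of the table's 56748 genes, of which 21970 are protein-coding. All cells carried the oncogene NRAS G12D, were sorted into medium lacking IL-3, and gave their RNA on day 3. The 4 groups, of 3 libraries each, differed in the construct: wild-type ETV6 (ETV6 WT), ETV6 P214L (P214L) or ETV6 with both I209S and P214L (I209S P214L), each followed by an IRES and the fluorescent protein ZsGreen, and ZsGreen alone (ZsGreen). ETV6 is a transcriptional repressor of the ETS family. The submitters describe P214L as creating a nuclear export sequence and I209S as breaking it, and ask whether the double mutant then resembles the wild type. Nothing in the labels says that the 3 libraries of a group were separate cultures, so p-values measure the spread between libraries, which may be technical.

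Translation begins when eIF2, loaded with GTP and the initiator tRNA, joins the small ribosomal subunit together with eIF1, eIF1A, eIF3 and eIF5. The eIF4F complex, made of the cap-binding eIF4E, the scaffold eIF4G and the helicase eIF4A, brings the mRNA, and eIF2B recharges eIF2 after each round. In elongation eEF1A delivers charged tRNAs, the eEF1B subunits recharge eEF1A, and eEF2 moves the ribosome along. Growing blood cells use these factors heavily, and several of their genes are known targets of MYC.

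The libraries held between 14301683 and 18607595 counts, so that 3 counts, the limit that a count of 0 allows, came to between 0.161 and 0.210 CPM, a count scaled to the size of its library. This limit covers counting error only. ZsGreen 1 stood apart on the second principal component (score 70.7), and ETV6 WT 1 (22.4) and I209S P214L 1 (21.2) lay on the same side. 18S ribosomal RNA took between 1.35% (I209S P214L 1) and 5.90% (P214L 1) of counts. The other I209S P214L libraries had 4.70% and 3.86%. ETV6 WT 1 had 1.58%, against 3.64% and 3.58% in the other ETV6 WT libraries, and ZsGreen 1 had 2.92%, the lowest of its group. Etv6, for which the table does not separate the introduced construct from the cell's own gene, had 122, 103 and 102 CPM in ETV6 WT cells, 103, 98.4 and 108 CPM in P214L cells and 112, 88.6 and 96.5 CPM in I209S P214L cells, against 87.4, 77.9 and 79.8 CPM in ZsGreen cells, and was called higher with each construct. Of 15 B-lineage markers, 12 had under 50 counts in all 12 libraries together, and Rag1, Il7r, Igll1, Dntt and Ms4a1 had no count in any library, so defining markers of the labelled pro-B cells were absent. Markers of other blood cells moved between the groups: of 9 tested neutrophil and monocyte markers, 7 fell and 1 rose with ETV6 WT and with I209S P214L, and 4 rose with P214L. The 15 genes of that list summed to 136 to 151 CPM in ETV6 WT cells, 153 to 214.3 CPM in P214L cells and 104 to 146 CPM in I209S P214L cells, against 71.9 to 75.9 CPM in ZsGreen cells, with Adgre1 giving most of it in ETV6 WT and I209S P214L cells, while Csf3r, Ly6c2 and Ly6g had no count. Of 9 erythroid markers, 4 rose and 3 fell with ETV6 WT, 3 rose and 3 fell with I209S P214L and none was called with P214L. Of 8 megakaryocyte markers, 4 fell and 1 rose with ETV6 WT, 5 fell with P214L and 4 with I209S P214L. Of 5 tested mast cell and basophil markers, 2 rose and 2 fell with ETV6 WT, 2 rose and 1 fell with I209S P214L and none was called with P214L. Of all genes tested, 37.7% were called with ETV6 WT, 41.5% with I209S P214L and 5.08% with P214L. The part of these markers in the members' levels was not tested. Counts are relative within a library of bulk RNA, so fewer cells of a type and less RNA per cell cannot be told apart.

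Of the 81 members, 58 had enough reads to be tested with edgeR's quasi-likelihood test. A member is called when its p-value, adjusted by Benjamini-Hochberg over all 14794 genes tested, is under 0.05. The other 23 stayed out. Among them 17 had no count in any library: 14 of the 16 numbered Eif1ad copies, Eif2s3y, the Y-linked copy of the eIF2 gamma gene, Eif4a3l1 and Eif4e1b. The remaining 6 had few counts. Eef1a2, the muscle and neuron form of eEF1A, had 5 counts in ZsGreen 1 and none elsewhere, and Eif4ebp3, another eIF4E-binding protein, had 0 to 19 counts per library. Over 1858 bases Eif4ebp3 overlaps Maskbp3 on the same strand, with 79 counts in all 12 libraries against 539 for Maskbp3, so reads of the pair could be mixed. The paralogue Eif5a2 had 0 to 7 counts per library.

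By FPKM, which the authors scaled to gene length, the members covered a wide range of levels. Eef1a1 was the most abundant with a mean of 6843 FPKM over the 12 libraries, followed by Eef2 with 1694 FPKM, Eef1b2 with 552 FPKM and Eef1g with 531 FPKM. The most abundant initiation factors were Eif3h (444 FPKM), Eif5a (355 FPKM) and Eif3f (287 FPKM). All members together took 3.87% ± 0.101 of counts in ETV6 WT cells, 3.83% ± 0.0987 in P214L cells and 3.87% ± 0.0847 in I209S P214L cells, against 4.05% ± 0.120 in ZsGreen cells (SD, n = 3 each). P214L lay below ZsGreen without overlap (exact two-sided permutation p = 0.1, the smallest possible), while ETV6 WT and I209S P214L overlapped ZsGreen (p = 0.2 each). Without Eef1a1 and Eef2 the share was 1.51% ± 0.0440 in ETV6 WT cells, 1.67% ± 0.0363 in P214L cells and 1.5% ± 0.0511 in I209S P214L cells, against 1.80% ± 0.0310 in ZsGreen cells (SD, n = 3 each). The libraries of ETV6 WT, P214L and I209S P214L all lay below those of ZsGreen in this share. An exact two-sided permutation test gave p = 0.1 for each, the smallest that 3 against 3 libraries allow (0.15 after adjustment over the 30 comparisons of this kind). Eef1a1 and Eef2, the most abundant members, were not called lower with any construct. The separation of ETV6 WT and I209S P214L from ZsGreen therefore rests on leaving them out.

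Most initiation and elongation factors were lower with ETV6 WT and with I209S P214L than with ZsGreen, while shifts with P214L were smaller. With ETV6 WT, 31 members fell and 3 rose of 58 tested, where 37.7% of all genes tested were called (19.5% higher and 18.2% lower). The median log2 fold change of the members was -0.28, against 0.03 over all genes tested. With I209S P214L, 35 members fell and 3 rose, where 41.5% of all genes were called (20.8% higher and 20.7% lower), and the members' median was -0.32. With P214L, 4 members fell and none rose, where 5.08% of all genes were called (3.47% higher and 1.61% lower), and the median was -0.08. At an unadjusted p under 0.05, edgeR had 14 members lower and 0 higher with P214L. The share of all genes at that threshold was not counted, so the 14 cannot be set against the 1.61%. The libraries did not overlap with those of ZsGreen for 40 members with ETV6 WT (46.2% of all genes), 22 with P214L (25.7%) and 43 with I209S P214L (47.8%). The changes were moderate, the largest being that of Eif2b3, 2.33-fold lower with I209S P214L. The 24 members not called with ETV6 WT had log2 fold changes between -0.42 and 0.27, and the 54 not called with P214L between -0.24 and 0.21. Leaving out ETV6 WT 1 and I209S P214L 1 together gave 41 members called with ETV6 WT, 42 with I209S P214L and 10 with P214L. In that setting 36.0%, 40.1% and 7.996% of all genes tested were called, in the same order. The share with P214L was 5.08% with all libraries, so its calls rose over all genes and not only among the members. The 3 comparisons share the ZsGreen libraries.

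**Figure D1:**
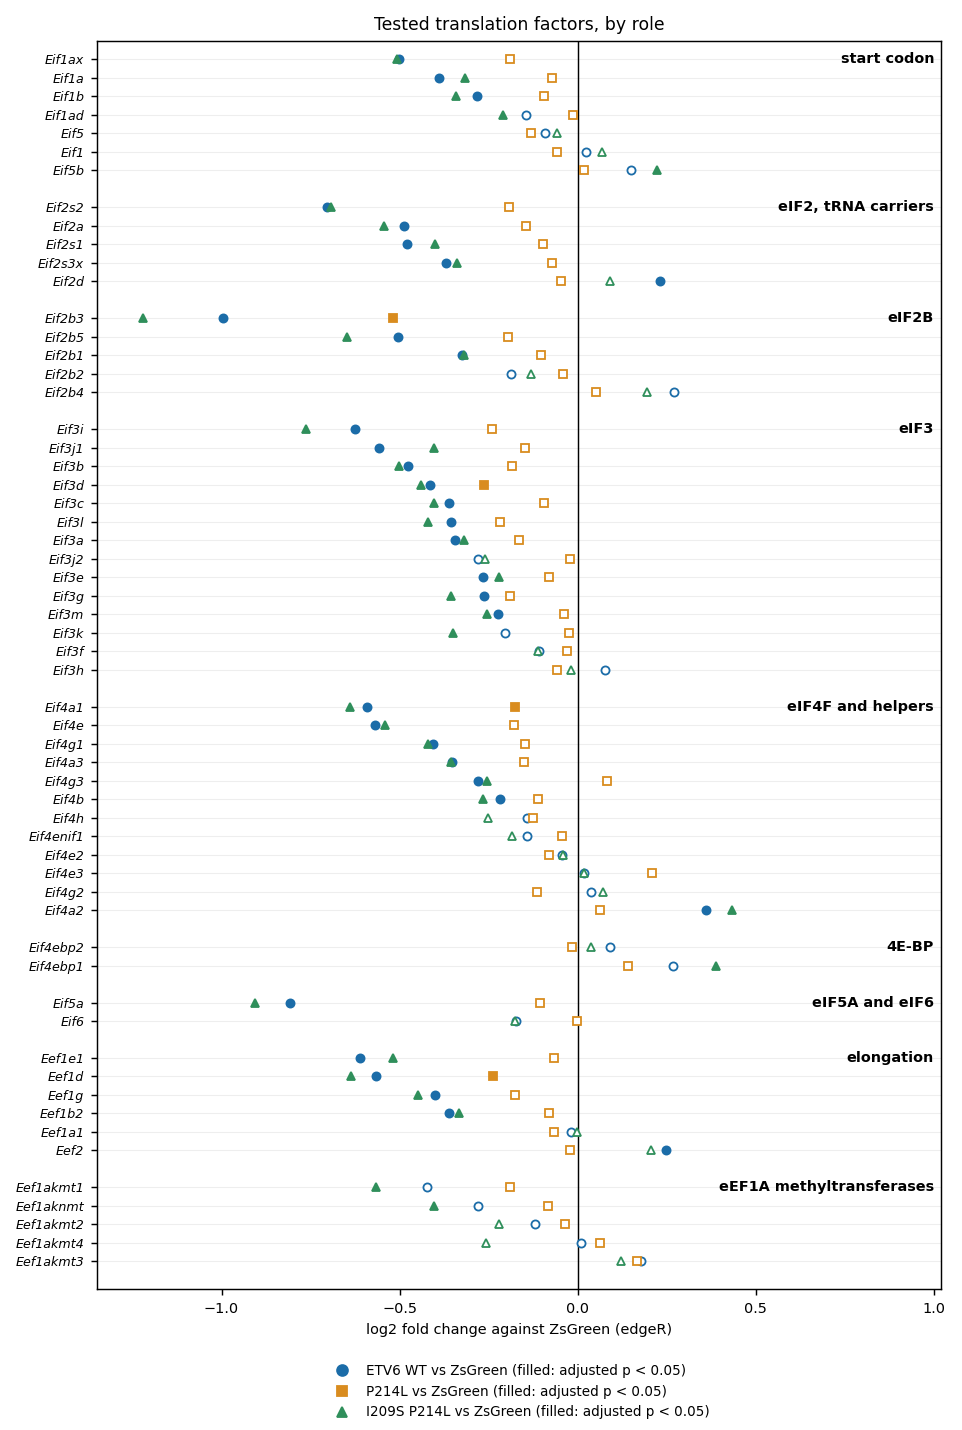
Log2 fold change against ZsGreen (x axis) of the 58 tested factors (rows, grouped by role and ordered by the ETV6 WT value) with ETV6 WT (circles), P214L (squares) and I209S P214L (triangles); filled symbols were called by edgeR. Circles and triangles lie mostly left of 0, with medians of -0.28 and -0.32. Most squares also lie left of 0 but nearer to it, with a median of -0.08.

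Promoter sequence is shown because the members moved together and because Myc, whose protein binds the E-box CACGTG with its partner MAX, moved with them. Myc averaged 112 ± 15.5 CPM in ETV6 WT cells, 176 ± 7.19 CPM in P214L cells and 106 ± 8.74 CPM in I209S P214L cells, against 188 ± 5.76 CPM in ZsGreen cells (SD, n = 3), and fell with ETV6 WT (-0.75) and with I209S P214L (-0.82). Its part in the members' levels was not tested. RefSeq windows from 250 bases before to 50 after the start (build GRCm38.p6, another build than the counts) were found for 48 members, 44 of them tested. CACGTG, which reads the same on both strands, stood in 25% of the 60 member windows, in 7.15% of all 32851 windows and in 9.69% of the windows of tested genes. Counted by gene, it stood in 6 of 25 members called lower with ETV6 WT, in 1 of 3 called higher and in 5 of 16 not called. The ETS core CCGGAAG, searched on both strands and unable to share bases with the E-box, stood in 31.7% of member windows, in 8.86% of all windows and in 18.2% of the windows of tested genes. It stood in 9 of 25 members called lower, 0 of 3 called higher and 6 of 16 not called. The 250 bases before the start are shown for 4 genes that fell, Eif4a1 (chr11:69672424-69672673 on the minus strand), Eif5a (chr11:69921387-69921636 on the minus strand), Eif4e (chr3:138527018-138527267 on the plus strand) and Eif2s2 (chr2:154892907-154893156 on the minus strand), and for 2 that rose, Eif4a2 (chr16:23107218-23107467 on the plus strand) and Eef2 (chr10:81176381-81176630 on the plus strand), each 5′ to 3′ along its own strand with CACGTG in capitals. Eif5a has 6 RefSeq windows and Eif4e 2, and the first that holds CACGTG is shown.
Eif4a1: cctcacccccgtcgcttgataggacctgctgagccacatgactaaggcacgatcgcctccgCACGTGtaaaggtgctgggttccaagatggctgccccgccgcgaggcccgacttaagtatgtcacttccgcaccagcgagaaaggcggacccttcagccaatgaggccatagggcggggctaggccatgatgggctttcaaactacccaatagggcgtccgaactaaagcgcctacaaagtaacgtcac
Eif5a: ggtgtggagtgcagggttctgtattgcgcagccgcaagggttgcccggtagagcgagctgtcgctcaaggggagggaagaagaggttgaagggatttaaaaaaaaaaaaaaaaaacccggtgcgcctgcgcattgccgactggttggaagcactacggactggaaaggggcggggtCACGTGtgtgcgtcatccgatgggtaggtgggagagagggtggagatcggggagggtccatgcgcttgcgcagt
Eif4e: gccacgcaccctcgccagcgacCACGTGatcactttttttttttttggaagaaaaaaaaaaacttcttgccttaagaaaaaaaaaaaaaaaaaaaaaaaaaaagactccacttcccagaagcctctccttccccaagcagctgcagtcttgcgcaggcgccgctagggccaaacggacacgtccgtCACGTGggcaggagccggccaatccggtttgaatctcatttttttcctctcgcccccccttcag
Eif2s2: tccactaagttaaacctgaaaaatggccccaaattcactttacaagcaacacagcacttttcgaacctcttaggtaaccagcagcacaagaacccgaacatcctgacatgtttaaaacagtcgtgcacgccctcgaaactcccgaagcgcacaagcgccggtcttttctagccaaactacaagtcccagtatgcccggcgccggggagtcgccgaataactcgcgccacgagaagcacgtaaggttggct
Eif4a2: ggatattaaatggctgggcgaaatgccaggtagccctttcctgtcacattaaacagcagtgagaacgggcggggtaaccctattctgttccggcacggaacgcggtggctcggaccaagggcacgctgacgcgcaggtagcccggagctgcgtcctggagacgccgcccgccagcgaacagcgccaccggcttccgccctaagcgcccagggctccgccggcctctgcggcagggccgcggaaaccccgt
Eef2: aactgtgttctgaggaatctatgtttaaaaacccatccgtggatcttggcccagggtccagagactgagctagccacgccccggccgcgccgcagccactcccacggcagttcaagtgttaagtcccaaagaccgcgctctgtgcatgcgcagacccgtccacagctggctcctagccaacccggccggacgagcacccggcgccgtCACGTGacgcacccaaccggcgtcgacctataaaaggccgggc
Eif4e carried 2 E-boxes and Eif4a1, Eif5a and Eef2 1 each, while these letters were not in the stretches of Eif2s2 and Eif4a2. The stretches are examples, and those of Eif5a and Eif4e were chosen for holding CACGTG, so no relation to direction can be read from them. Whether the E-box bears on the members' levels was not tested.

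Within the cap-binding complex eIF4F, the helicase genes moved in opposite directions. Of 12 tested members of eIF4F and its helpers, 6 fell and 1 rose with ETV6 WT, 6 fell and 1 rose with I209S P214L, and 1 fell with P214L. The shares of all genes tested that fell were 18.2%, 20.7% and 1.61%, in the same order. Eif4a1 (ENSMUSG00000059796, chr11:69557762-69563249, minus strand, mm39), the main eIF4A helicase gene, had 796, 773 and 775 CPM in ETV6 WT cells, 1057, 1037 and 1034 CPM in P214L cells and 758, 759 and 754 CPM in I209S P214L cells, against 1161, 1194 and 1181 CPM in ZsGreen cells. The libraries of the 4 groups did not overlap, with ZsGreen highest and P214L next. Eif4a1 fell with ETV6 WT (log2 fold change -0.59, SE 0.0502, adjusted p = 4.82e-08) and with I209S P214L (log2 fold change -0.64, SE 0.0503, adjusted p = 1.47e-08). Its fall with P214L was small (log2 fold change -0.18, SE 0.0501, adjusted p = 0.0491) and not called when ETV6 WT 2, any 1 P214L library, I209S P214L 1, I209S P214L 3 or any 1 ZsGreen library was left out (log2 fold change -0.20 to -0.17, adjusted p 0.0505 to 0.140). The pseudogene Eif4a-ps4, which may share reads with Eif4a1, was also lower with ETV6 WT (152, 166 and 212 CPM, against 349, 339 and 314 CPM in ZsGreen cells), so part of the Eif4a1 count is uncertain.

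Eif4a2 (ENSMUSG00000022884, chr16:22926194-22932886, plus strand), which encodes a close paralogue of the same helicase, moved the other way. It had 274, 326 and 338 CPM in ETV6 WT cells, 249, 254 and 258 CPM in P214L cells and 321, 320.3 and 345 CPM in I209S P214L cells, against 225, 254 and 251 CPM in ZsGreen cells. All ETV6 WT and I209S P214L libraries lay above all ZsGreen libraries, ETV6 WT 1 being the lowest of them, and P214L overlapped ZsGreen. Eif4a2 rose with ETV6 WT (log2 fold change 0.36, SE 0.0767, adjusted p = 0.00103) and with I209S P214L (log2 fold change 0.43, SE 0.0767, adjusted p = 0.000172). These calls held in each of the 23 alternative settings. Its gene overlaps the end of Rfc4 on the opposite strand by 194 bases, and the strandedness of the libraries is not known.

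As a share of the summed FPKM of both helicase genes, Eif4a2 made up 21.8, 25.5 and 26.1% in the ETV6 WT libraries, 16.1, 16.6 and 16.8% in the P214L libraries and 25.6, 25.5 and 27.1% in the I209S P214L libraries, against 13.6, 14.7 and 14.7% in the ZsGreen libraries. The group means were 24.5% ± 2.32 in ETV6 WT cells, 16.5% ± 0.388 in P214L cells, 26.1% ± 0.870 in I209S P214L cells and 14.3% ± 0.664 in ZsGreen cells (SD, n = 3 each). ETV6 WT and I209S P214L overlapped each other and lay above P214L, which lay above ZsGreen. Each pair of groups without overlap had an exact two-sided permutation p of 0.1, the smallest possible (0.15 adjusted over 30 comparisons), so this share alone cannot pass 0.05 in this design.

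**Figure D2:**
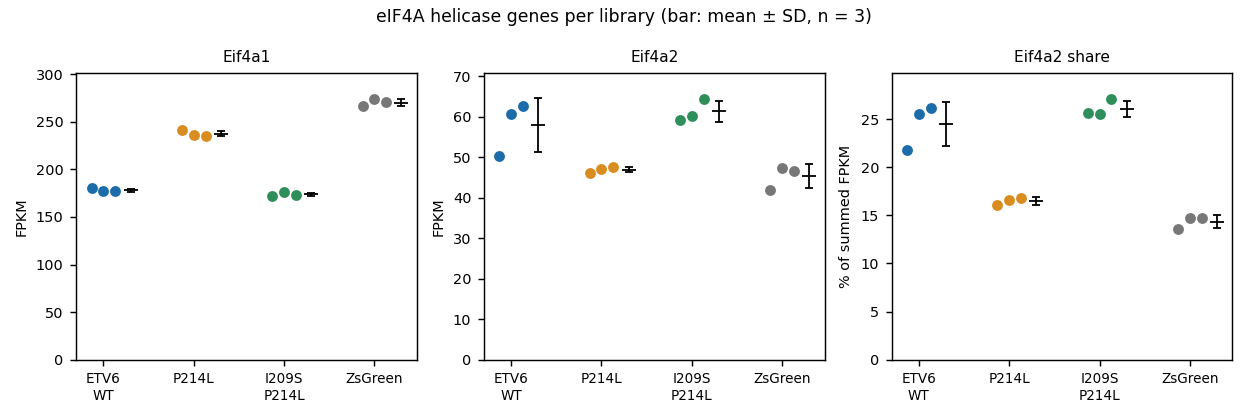
FPKM of Eif4a1 (left) and Eif4a2 (middle) and the share of Eif4a2 in their sum (right, %) in each library (points, replicates 1 to 3 from the left) with the mean ± SD (bars, n = 3). The Eif4a2 share averaged 24.5% in ETV6 WT cells, 16.5% in P214L cells and 26.1% in I209S P214L cells, against 14.3% in ZsGreen cells.

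Eif4e (ENSMUSG00000028156, chr3:138231940-138265457, plus strand), the cap-binding protein, had 88.2, 85.8 and 86.0 CPM in ETV6 WT cells, 118, 115 and 108 CPM in P214L cells and 88.2, 87.4 and 89.1 CPM in I209S P214L cells, against 125, 123 and 138 CPM in ZsGreen cells. Its ETV6 WT and I209S P214L libraries shared 1 narrow range, and all of them lay below the P214L libraries, which lay below ZsGreen. It fell with ETV6 WT (log2 fold change -0.57, SE 0.0670, adjusted p = 2.48e-06) and with I209S P214L (log2 fold change -0.54, SE 0.0671, adjusted p = 3.60e-06), and with P214L the log2 fold change of -0.18 was not called (adjusted p = 0.148). The scaffold genes Eif4g1 and Eif4g3 fell with ETV6 WT (log2 fold changes -0.41 and -0.28), as did the helicase cofactor Eif4b (-0.22) and the exon junction helicase Eif4a3 (-0.35). The cap-binding relatives Eif4e2 (log2 fold change -0.04) and Eif4e3 (0.02) were not called in any comparison with ZsGreen. Eif4g2, an eIF4G relative that does not bind eIF4E, averaged 1065 ± 17.3 CPM in ETV6 WT cells, 959 ± 19.8 CPM in P214L cells and 1090.0 ± 63.0 CPM in I209S P214L cells, against 1038 ± 11.8 CPM in ZsGreen cells, a log2 fold change of 0.04 with ETV6 WT that was not called. Eif4ebp1, an inhibitor that holds eIF4E away from eIF4G, averaged 91.9 ± 11.7 CPM in ETV6 WT cells, 84.1 ± 2.54 CPM in P214L cells and 99.6 ± 15.9 CPM in I209S P214L cells, against 76.3 ± 5.03 CPM in ZsGreen cells. It rose with I209S P214L (log2 fold change 0.39, SE 0.106, adjusted p = 0.00668), and with ETV6 WT its log2 fold change of 0.27 was not called (adjusted p = 0.0549). Its relative Eif4ebp2 was not called in any comparison.

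The eIF2 subunits fell together. The subunit genes Eif2s1 (alpha, the target of the stress kinases), Eif2s2 (beta) and Eif2s3x (gamma) and the tRNA-binding factor Eif2a were all called lower with ETV6 WT and with I209S P214L, and none with P214L. Among all genes tested, 18.2% were called lower with ETV6 WT, 20.7% with I209S P214L and 1.61% with P214L. Eif2s2 had 94.7, 112 and 106 CPM in ETV6 WT cells, 148, 147 and 151 CPM in P214L cells and 97.6, 113 and 105 CPM in I209S P214L cells, against 174, 165 and 171 CPM in ZsGreen cells. ETV6 WT and I209S P214L overlapped, P214L lay above them and ZsGreen above P214L. Eif2s2 fell with ETV6 WT (log2 fold change -0.70, SE 0.0739, adjusted p = 6.33e-07) and with I209S P214L (log2 fold change -0.69, SE 0.0740, adjusted p = 6.27e-07). The span of the coat colour gene a covers that of Eif2s2 on the opposite strand, with 3119 counts in all 12 libraries against 25970 for Eif2s2. Eif2s1 averaged 176 ± 10.8 CPM in ETV6 WT cells, 229 ± 6.06 CPM in P214L cells and 186 ± 17.7 CPM in I209S P214L cells, against 245 ± 10.5 CPM in ZsGreen cells, and Eif2s3x 122 ± 6.33 CPM in ETV6 WT cells, 149.6 ± 6.74 CPM in P214L cells and 124 ± 8.09 CPM in I209S P214L cells, against 157 ± 0.565 CPM in ZsGreen cells. Their log2 fold changes with ETV6 WT were -0.48 and -0.37, and that of Eif2a, which shares 72 bases with Serp1 on the opposite strand, was -0.49.

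Eif2d, which can bring tRNA to the ribosome without eIF2 and acts in ribosome recycling, was the exception in this group. It had 111, 110.4 and 109 CPM in ETV6 WT cells, 91.4, 92.6 and 88.5 CPM in P214L cells and 104, 95.9 and 99.3 CPM in I209S P214L cells, against 103, 91.0 and 87.3 CPM in ZsGreen cells, so the ETV6 WT libraries lay above ZsGreen by a margin smaller than the spread of the ZsGreen libraries. Eif2d rose with ETV6 WT (log2 fold change 0.23, SE 0.0718, adjusted p = 0.0163), but was not called when ZsGreen 2 or ZsGreen 3 was left out (log2 fold change 0.17 to 0.20, adjusted p 0.0711 to 0.105). It overlaps Rassf5 on the opposite strand over 11249 bases, and reads of the pair cannot be told apart without strand.

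Within eIF2B, the exchange factor that recharges eIF2, the catalytic subunits fell most. Eif2b3 (ENSMUSG00000028683, chr4:116876599-116944503, plus strand), the gamma subunit, had 18.3, 18.2 and 18.2 CPM in ETV6 WT cells, 25.3, 24.7 and 26.2 CPM in P214L cells and 16.2, 15.1 and 15.5 CPM in I209S P214L cells, against 40.0, 35.9 and 33.3 CPM in ZsGreen cells. The libraries of the 4 groups did not overlap, and those with I209S P214L were the lowest. It showed the largest fall of any tested member with ETV6 WT (log2 fold change -1.0, SE 0.106, adjusted p = 7.03e-07), with P214L (log2 fold change -0.52, SE 0.104, adjusted p = 0.00556) and with I209S P214L (log2 fold change -1.22, SE 0.107, adjusted p = 5.66e-08). These 3 calls held in each of the 23 alternative settings.

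Eif2b5, the catalytic epsilon subunit, had 61.7, 49.9 and 51.8 CPM in ETV6 WT cells, 65.8, 70.6 and 66.0 CPM in P214L cells and 57.3, 45.0 and 45.2 CPM in I209S P214L cells, against 91.4, 73.3 and 66.9 CPM in ZsGreen cells, where ZsGreen 1 was well above the other libraries. It fell with ETV6 WT (log2 fold change -0.50, SE 0.119, adjusted p = 0.00247) and with I209S P214L (log2 fold change -0.65, SE 0.120, adjusted p = 0.000264). Of the regulatory subunits, Eif2b1 (alpha) fell with ETV6 WT (-0.32), while Eif2b2 (beta, -0.19) and Eif2b4 (delta, 0.27) were not called and their libraries overlapped ZsGreen. Eif2b4 shares 204 bases with Snx17 on the opposite strand. The ratio of Eif2b4 to Eif2b3 FPKM was 6.81, 5.36 and 4.94 in ETV6 WT cells, 3.46, 3.94 and 3.17 in P214L cells and 6.62, 6.07 and 6.21 in I209S P214L cells, against 1.87, 2.47 and 2.86 in ZsGreen cells. ETV6 WT and I209S P214L overlapped and lay highest, and all 3 constructs lay above ZsGreen without overlap (exact two-sided permutation p = 0.1 for each, the smallest possible). The ratio joins the eIF2B genes with the highest (0.27) and the lowest (-1.0) log2 fold change with ETV6 WT. Eif2b3 alone already separated each construct from ZsGreen, so the ratio adds no separate evidence.

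The scaffold complex eIF3 had 14 tested members, of which 10 fell with ETV6 WT, 11 with I209S P214L and 1 with P214L, and none rose. Over all genes tested, 18.2%, 20.7% and 1.61% fell, in the same order. Eif3i, a subunit of the module that also holds Eif3b and Eif3g, had 187, 161 and 176 CPM in ETV6 WT cells, 221, 240.4 and 223 CPM in P214L cells and 171, 160.3 and 145 CPM in I209S P214L cells, against 287, 277 and 245 CPM in ZsGreen cells. It fell with ETV6 WT (log2 fold change -0.63, SE 0.0799, adjusted p = 6.09e-06) and with I209S P214L (log2 fold change -0.76, SE 0.0802, adjusted p = 5.09e-07), with no overlap between these libraries and ZsGreen. Eif3b (log2 fold change -0.48 with ETV6 WT) and the largest subunit Eif3a (-0.34) fell as well. Eif3e averaged 435 ± 22.0 CPM in ETV6 WT cells, 495 ± 9.59 CPM in P214L cells and 449 ± 4.67 CPM in I209S P214L cells, against 523 ± 14.9 CPM in ZsGreen cells, and fell by less (log2 fold change -0.27, SE 0.0573, adjusted p = 0.00121). Eif3c and Eif3l, 2 further core subunits, fell with ETV6 WT (-0.36 and -0.35) and with I209S P214L (-0.40 and -0.42). Eif3d, a subunit that can bind the cap of some mRNAs, averaged 132 ± 6.77 CPM in ETV6 WT cells, 147 ± 3.02 CPM in P214L cells and 130.1 ± 6.74 CPM in I209S P214L cells, against 176 ± 9.22 CPM in ZsGreen cells. It fell with ETV6 WT (-0.41). Its fall with P214L (log2 fold change -0.26, SE 0.0673, adjusted p = 0.0289) was not called when any 1 P214L library, ZsGreen 1 or ZsGreen 2 was left out (log2 fold change -0.28 to -0.25, adjusted p 0.0722 to 0.128). Eif3g fell with ETV6 WT (-0.26) but was not called when ETV6 WT 2, ETV6 WT 3, ZsGreen 1 or ZsGreen 2 was left out (log2 fold change -0.29 to -0.18, adjusted p 0.0626 to 0.177). Eif3j1 fell with ETV6 WT (-0.56), but reads of its near copy Eif3j2, which was not called (-0.28), and of Spg11 on the opposite strand could be mixed with its own.

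Eif3h, the most abundant eIF3 gene by FPKM, averaged 761 ± 27.7 CPM in ETV6 WT cells, 692 ± 26.3 CPM in P214L cells and 712 ± 20.6 CPM in I209S P214L cells, against 721 ± 6.44 CPM in ZsGreen cells (SD, n = 3). It was not called in any comparison, and its log2 fold change with ETV6 WT was 0.08. Eif3f, which pairs with Eif3h in the complex, had a log2 fold change of -0.11 with ETV6 WT and was not called either. Over the 14 eIF3 genes, log2 fold changes with ETV6 WT ran between -0.63 and 0.08.

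**Figure D3:**
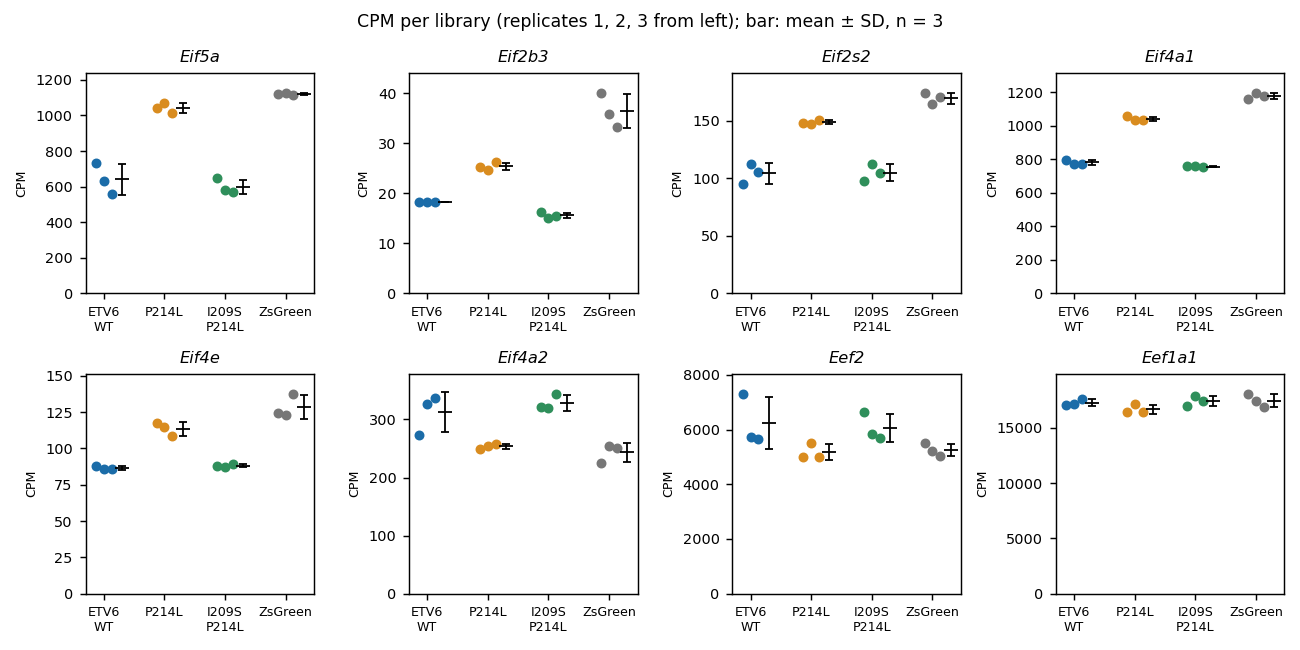
CPM of 8 members in each library (points, replicates 1 to 3 from the left) with the mean ± SD (bars, n = 3), all y axes starting at 0. Eif5a, Eif2b3, Eif2s2, Eif4a1 and Eif4e are lower with ETV6 WT and I209S P214L than with P214L and ZsGreen, Eif4a2 is higher, Eef2 is highest in ETV6 WT 1 and I209S P214L 1, and Eef1a1 is about level.

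Among the factors that select the start codon, 3 of 7 tested fell with ETV6 WT and 4 with I209S P214L, where 1 rose. Of all genes tested, 37.7% were called with ETV6 WT (18.2% lower) and 41.5% with I209S P214L (20.7% lower). Eif1ax, the X-linked eIF1A gene, averaged 116 ± 8.42 CPM in ETV6 WT cells, 144 ± 8.97 CPM in P214L cells and 115 ± 3.28 CPM in I209S P214L cells, against 164 ± 12.9 CPM in ZsGreen cells (log2 fold change -0.50 with ETV6 WT), and its copy Eif1a averaged 90.2 ± 4.53 CPM in ETV6 WT cells, 112 ± 4.46 CPM in P214L cells and 94.9 ± 6.35 CPM in I209S P214L cells, against 118 ± 3.00 CPM in ZsGreen cells (-0.39). Eif1b fell as well (-0.28) and was not called when ETV6 WT 3 was left out (log2 fold change -0.21, adjusted p = 0.0643). Eif1, the main eIF1 gene, and Eif5, which makes eIF2 hydrolyse its GTP, were not called, with log2 fold changes of 0.02 and -0.09 with ETV6 WT. Eif5b, the GTPase that joins the ribosomal subunits, had 199, 226 and 218 CPM in ETV6 WT cells, 197, 190.2 and 199 CPM in P214L cells and 223, 228 and 224 CPM in I209S P214L cells, against 195, 206 and 178 CPM in ZsGreen cells. The I209S P214L libraries lay above those of ZsGreen, and ETV6 WT overlapped both. Reads of Rev1, on the opposite strand, could be mixed with those of Eif5b. It rose with I209S P214L (log2 fold change 0.22, SE 0.0683, adjusted p = 0.0142) but was not called when I209S P214L 2 or ZsGreen 3 was left out (log2 fold change 0.15 to 0.20, adjusted p 0.0563 to 0.110).

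Eif5a (ENSMUSG00000078812, chr11:69807540-69812784, minus strand), the factor modified with hypusine that helps ribosomes past difficult stretches such as runs of proline, had 732, 631 and 557 CPM in ETV6 WT cells, 1039, 1071 and 1015 CPM in P214L cells and 646, 579.9 and 569 CPM in I209S P214L cells, against 1123, 1125 and 1113 CPM in ZsGreen cells. The ETV6 WT libraries were spread out, with replicate 1 the highest, yet all lay below every P214L and ZsGreen library. Eif5a fell with ETV6 WT (log2 fold change -0.81, SE 0.0798, adjusted p = 3.01e-07) and with I209S P214L (log2 fold change -0.90, SE 0.0800, adjusted p = 6.17e-08), while with P214L its log2 fold change of -0.10 was not called (adjusted p = 0.542). Eif6, which keeps large ribosomal subunits from joining too early, averaged 78.3 ± 9.38 CPM in ETV6 WT cells, 88.1 ± 1.38 CPM in P214L cells and 78.0 ± 5.69 CPM in I209S P214L cells, against 88.2 ± 6.42 CPM in ZsGreen cells and was not called in any comparison.

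In elongation, the exchange factor fell while the carrier eEF1A did not pass the test. Eef1a1 (ENSMUSG00000037742, chr9:78385731-78396433, minus strand) had 17026, 17121 and 17606 CPM in ETV6 WT cells, 16427, 17140.5 and 16417 CPM in P214L cells and 16981, 17896 and 17407 CPM in I209S P214L cells, against 18096, 17459.6 and 16843 CPM in ZsGreen cells, and all groups overlapped. Its log2 fold change with ETV6 WT was -0.02 (SE 0.0433, adjusted p = 0.786) and 0.01 when scaled by library totals only. The genes of the exchange factor eEF1B all fell with ETV6 WT, where 18.2% of all genes tested fell. Eef1d, its delta subunit, had 184, 163 and 172 CPM in ETV6 WT cells, 212, 231 and 208 CPM in P214L cells and 171, 165 and 158 CPM in I209S P214L cells, against 251, 259 and 258 CPM in ZsGreen cells, with no overlap between any construct and ZsGreen. It fell with ETV6 WT (log2 fold change -0.57, SE 0.0660, adjusted p = 2.17e-06) and with I209S P214L (log2 fold change -0.64, SE 0.0661, adjusted p = 4.54e-07). Its smaller fall with P214L (log2 fold change -0.24, SE 0.0658, adjusted p = 0.0440) was not called when P214L 1, P214L 3 or any 1 ZsGreen library was left out (log2 fold change -0.26 to -0.22, adjusted p 0.0681 to 0.171). Eef1b2 averaged 1247 ± 62.5 CPM in ETV6 WT cells, 1514 ± 67.4 CPM in P214L cells and 1273 ± 86.5 CPM in I209S P214L cells, against 1602 ± 75.0 CPM in ZsGreen cells, and Eef1g 1249 ± 158 CPM in ETV6 WT cells, 1459 ± 52.5 CPM in P214L cells and 1209 ± 114 CPM in I209S P214L cells, against 1648 ± 27.8 CPM in ZsGreen cells, with log2 fold changes of -0.36 and -0.40 with ETV6 WT. Eef1e1, a member of the tRNA synthetase complex despite its name, fell with ETV6 WT too (log2 fold change -0.61, SE 0.110, adjusted p = 0.000243).

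Eef2 (ENSMUSG00000034994, chr10:81012465-81018332, plus strand), the translocase, had 7318, 5732 and 5661 CPM in ETV6 WT cells, 4992, 5513 and 5008 CPM in P214L cells and 6656, 5832 and 5685 CPM in I209S P214L cells, against 5494, 5214 and 5050.4 CPM in ZsGreen cells. ETV6 WT 1 and I209S P214L 1, which stood apart from their groups over all genes, held the highest values, and the other ETV6 WT libraries exceeded the highest ZsGreen library by a small margin. Eef2 rose with ETV6 WT (log2 fold change 0.25, SE 0.0846, adjusted p = 0.0274) but was not called when ETV6 WT 1, ZsGreen 2 or ZsGreen 3 was left out (log2 fold change 0.12 to 0.23, adjusted p 0.0860 to 0.162). With I209S P214L its log2 fold change of 0.21 was not called (adjusted p = 0.0607). Of the 5 tested methyltransferases that modify eEF1A, none was called with ETV6 WT, 2 fell with I209S P214L (Eef1akmt1, log2 fold change -0.57, and Eef1aknmt, -0.40) and none was called with P214L. Over all genes tested, 37.7%, 41.5% and 5.08% were called in these comparisons, in the same order. Eef1akmt1 was not called when I209S P214L 2, I209S P214L 3 or ZsGreen 2 was left out (log2 fold change -0.49 to -0.47, adjusted p 0.0840 to 0.0915), and Eef1aknmt was not called when I209S P214L 2 was left out (log2 fold change -0.34, adjusted p = 0.0528).

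Set against ETV6 WT, P214L gave more members higher than lower. Of 58 members, 22 were higher and 4 lower with P214L than with ETV6 WT, where 29.2% of all genes were called (14.6% in each direction), and the median log2 fold change was 0.18, while 35 members had no overlap between the groups (45.4% of all genes). The largest differences were those of Eif5a (log2 fold change 0.70, SE 0.0797, adjusted p = 2.40e-06), Eef1e1 (0.54), Eif2s2 (0.51), Eif2b3 (0.48) and Eif4a1 (0.42). Those lower with P214L were Eif4a2 (-0.30), Eif2d (-0.28), Eef2 (-0.27) and Eif4g2 (-0.15). Eef2 was not called when ETV6 WT 1, P214L 1 or P214L 3 was left out (log2 fold change -0.24 to -0.14, adjusted p 0.0899 to 0.114). Eif4g2 was not called when any 1 ETV6 WT library, any 1 P214L library, I209S P214L 2, I209S P214L 3 or any 1 ZsGreen library was left out (log2 fold change -0.17 to -0.13, adjusted p 0.0566 to 0.175).

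I209S P214L and ETV6 WT could not be told apart by any member. None of the 58 was called, where 0.0338% of all genes were (0.0135% higher and 0.0203% lower). None reached an unadjusted p under 0.05 with edgeR, a threshold at which the share of all genes was not counted. DESeq2 and limma-voom also called none. Log2 fold changes ran from -0.27 for Eef1akmt4 to 0.16 for Eif3j1, with a median SE of 0.0783, and 4 members had no overlap between the groups (8.33% of all genes). Eif2b3 had the smallest p (0.0551 unadjusted), with 16.2, 15.1 and 15.5 CPM in I209S P214L cells, against 18.3, 18.2 and 18.2 CPM in ETV6 WT cells, a log2 fold change of -0.22 (SE 0.108), and its libraries did not overlap. A p that misses the threshold does not show that the 2 groups were equal.

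Adding I209S to P214L shifted the factors in the same direction as wild-type ETV6 did against ZsGreen. With I209S P214L 26 members were lower and 4 higher than with P214L, where 33.0% of all genes were called (15.9% higher and 17.1% lower), the median was -0.21, and 40 members had no overlap between the groups (48.2% of all genes). The largest falls were those of Eif5a (log2 fold change -0.80, SE 0.0798, adjusted p = 4.18e-07), Eif2b3 (-0.70), Eif3i (-0.52), Eif2s2 (-0.50) and Eif4a1 (-0.46). Those higher were Eif4a2 (log2 fold change 0.37, SE 0.0767, adjusted p = 0.000960), Eef2 (0.23), Eif5b (0.20) and Eif4g2 (0.19). Eef2 was not called when P214L 1, P214L 3, I209S P214L 1, I209S P214L 2 or any 1 ZsGreen library was left out (log2 fold change 0.15 to 0.25, adjusted p 0.0565 to 0.189), Eif5b was not called when any 1 P214L library or any 1 I209S P214L library was left out (log2 fold change 0.18 to 0.21, adjusted p 0.0556 to 0.113), and Eif4g2 was not called when P214L 1 or I209S P214L 1 was left out (log2 fold change 0.13 to 0.17, adjusted p 0.0671 to 0.0894). This comparison shares no library with ETV6 WT against ZsGreen. Across the 58 members, which are genes and not independent replicates, the log2 fold changes of both comparisons had a Pearson r of 0.914, and 52 had the same sign (89.7%, against 79.5% of all genes tested). Called lower in both were 24 (of 31 and of 26), which is 41.4% of members against 13.4% of all genes. Eif4a2 and Eef2 were called higher in both (of 3 and of 4), which is 3.45% of members against 12.8% of all genes.

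**Figure D4:**
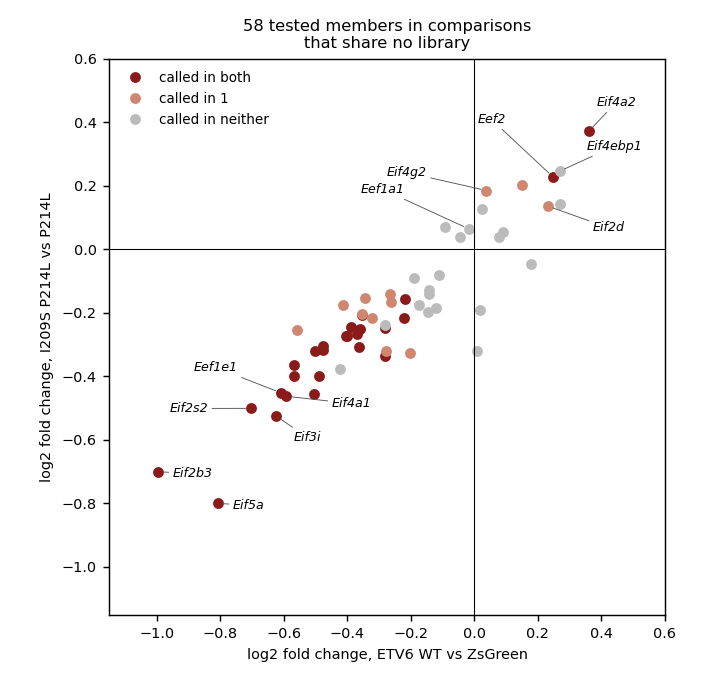
Log2 fold changes of the 58 tested members in I209S P214L against P214L (y axis) and in ETV6 WT against ZsGreen (x axis), comparisons that share no library; colours show in how many of them a member was called. Eif2b3 and Eif5a lie farthest to the lower left and Eif4a2 farthest to the upper right, and 52 of 58 points have the same sign on both axes.

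Genes that regulate these factors or work beside them, which the naming rule leaves out, fell more often than they rose. Of 40 tested, 5 rose and 12 fell with ETV6 WT (median log2 fold change -0.05). With I209S P214L 5 rose and 15 fell, and with P214L 1 rose and 2 fell (median -0.03 for both). Of all genes tested, 37.7% were called with ETV6 WT (19.5% higher and 18.2% lower) and 41.5% with I209S P214L (20.8% higher and 20.7% lower). With P214L 5.08% were called (3.47% higher and 1.61% lower). Mknk1, a kinase that phosphorylates eIF4E, had 106, 109.7 and 109.8 CPM in ETV6 WT cells, 67.6, 72.6 and 65.8 CPM in P214L cells and 107, 104 and 115 CPM in I209S P214L cells, against 59.9, 68.2 and 66.3 CPM in ZsGreen cells. Mknk1 rose with ETV6 WT (log2 fold change 0.74, SE 0.0736, adjusted p = 3.05e-07), where Eif4e itself fell. Impact, an inhibitor of the eIF2 kinase GCN2, averaged 31.8 ± 5.30 CPM in ETV6 WT cells, 20.9 ± 1.04 CPM in P214L cells and 30.7 ± 1.86 CPM in I209S P214L cells, against 18.4 ± 0.951 CPM in ZsGreen cells and rose with ETV6 WT (0.79). The recycling factor Abce1 (-0.48), the termination factor Gspt1 (-0.47) and the mRNA-binding Larp1 (-0.42) fell. With P214L the riser was Eef2k, the kinase that inhibits eEF2, which had 268, 264 and 244 CPM in P214L cells, against 213.9, 216 and 199 CPM in ZsGreen cells (log2 fold change 0.30, SE 0.0726, adjusted p = 0.0197). It was also higher with P214L than with ETV6 WT (0.27). The genes that fell with P214L were Ppp1r15a, whose product brings a phosphatase to eIF2 alpha (log2 fold change -0.41, SE 0.0897, adjusted p = 0.0101), and Abce1 (-0.23). Of 10 mitochondrial translation factors, 3 fell with ETV6 WT, 4 with I209S P214L and none with P214L, and none rose.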

How the data were processed

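RNA was poly-A selected and sequenced from 12 libraries of Ba/F3 cells (4 groups of 3). Per the submitters' processing notes the reads were aligned with HISAT2 2.0.5 to mm39 and counted with featureCounts 1.5.0-p3, and the authors deposited raw read counts per gene and FPKM values, which they scaled by gene length and library. The annotation release is not given in the sources used here, and the labels' protocol describes both stranded and unstranded library making. The authors' deposited table also holds group means (a normalized signal), log2 fold changes and p-values of their own comparisons, which were not used.

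Genes were kept by edgeR's filter on low counts (14794 of 56748), scaled by TMM and tested with edgeR 4.0.16 (R 4.3.3): the quasi-likelihood test, with 1 mean per group over all 12 libraries, 6 pairwise comparisons, and Benjamini-Hochberg adjustment over all genes tested, called at an adjusted p under 0.05. CPM are counts scaled by library size and TMM; sums over lists of markers use library totals. SE is that of the log2 fold change. Ratios of FPKM were compared with exact two-sided permutation tests (scipy 1.17.1). Alternatives were other scalings, DESeq2 1.42.0, limma-voom (limma 3.58.1), other filters, a replicate block, only the 2 groups compared, and libraries left out. Replicate numbers were not taken to pair the libraries: of 18 correlations between same-numbered libraries, 2 exceeded 0.1, ETV6 WT 1 with I209S P214L 1 (0.528) and ETV6 WT 3 with I209S P214L 3 (0.254). ETV6 WT 1 had -0.211 with I209S P214L 2 and -0.350 with I209S P214L 3. ZsGreen 1 had 0.0900 with ETV6 WT 1, 0.0963 with I209S P214L 1 and -0.0273 with P214L 1. Whether some replicate 1 libraries shared a batch is not given by the labels and was not tested.

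The genes were taken by name, and both they and the lists beside them were chosen with earlier results of these data known. Members named are a fixed list of the main subunits and, per comparison, the 10 called higher and the 10 called lower with the largest log2 fold change; of the related genes, up to 5 per comparison with the smallest adjusted p. Eif1a, Eif1b, Eif3f, Eif3g, Eif3j2, Eef1akmt4, Eef1aknmt, Dhx29, Denr, Mknk2, Eif2ak2, Eif2ak4 and the mitochondrial factors were named after their values were seen. Overlapping genes and near copies are named for some of the members whose reads could be mixed with theirs. On the same strand, Eif4e3 also overlaps Gm20696 over 41637 bases and Eef1akmt4 overlaps Gm49333 over 7402 bases. Sequences are RefSeq's, on GRCm38.p6, and are not the build of the counts.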

Additional observations from a re-analysis of the deposited data

How the results depend on the processing

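Over the 23 alternative settings, no member called in a comparison changed direction. Of 132 called pairs of member and comparison, 101 were called in every setting and 31 lost their call in at least 1. Of 216 uncalled pairs, 50 gained a call in at least 1 setting, and 73 changed sign, all from a log2 fold change of at most 0.177 in size. Among these, Eef1a1 with ETV6 WT against ZsGreen (-0.02) came to 0.0084 with library totals only, 0.0022 with no filter and 0.0080 without ZsGreen 1, ETV6 WT 1 and I209S P214L 1. With P214L against ZsGreen the count of 4 members depended on the setting: it was 8 with DESeq2, 1 with no filter, 10 with only the 2 groups compared and 10 without ETV6 WT 1 and I209S P214L 1, and between 1 and 4 when single libraries were left out. The share of all genes tested moved as well, from 5.08% to 8.03%, 3.64%, 8.14% and 7.996%, in the same order. It lay between 2.39% and 6.20% when single libraries were left out. Leaving out single libraries gave between 31 and 41 members with ETV6 WT against ZsGreen, 34 to 41 with I209S P214L against ZsGreen, 20 to 29 with P214L against ETV6 WT and 23 to 35 with I209S P214L against P214L. Of all genes tested, 31.5% to 37.3%, 35.0% to 41.2%, 22.3% to 29.7% and 25.7% to 33.4% were called, in the same order. I209S P214L against ETV6 WT had 0 in each setting, where 0.00649% to 0.149% of all genes were called. A replicate block gave 35, 4 and 40 members for ETV6 WT, P214L and I209S P214L against ZsGreen, 29 for P214L against ETV6 WT, 0 for I209S P214L against ETV6 WT and 33 for I209S P214L against P214L. Of all genes, 39.1%, 5.96%, 43.0%, 30.6%, 0.0270% and 34.5% were called with that block, in the same order. No scaling moved the median of all genes by over 0.1. With 3 libraries a group the median SE of a member's log2 fold change was about 0.078, which limits the differences that can be told from 0, and the 23 untested members have too few counts. The cause of the changes between settings was not tested.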

Other observations

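The genes around the factors also differed between the constructs. Of 40 tested regulators and partners, 12 were higher and 4 lower with P214L than with ETV6 WT, and 7 were higher and 13 lower with I209S P214L than with P214L, where 29.2% and 33.0% of all genes were called. In the first comparison 14.6% of all genes were called in each direction, and in the second 15.9% higher and 17.1% lower. Rbm3, the cold-induced RNA-binding protein (-0.41), the helicases Ddx3x (-0.40) and Dhx29 (-0.43), the re-initiation factor Denr (-0.35) and Paip2b, which binds the poly-A-binding protein (-0.52), were lower on the log2 scale with I209S P214L than with P214L. The kinase genes split: Mknk1 (0.66) and Mknk2 (0.35), whose products phosphorylate eIF4E, and Eif2ak2, which encodes the double-stranded RNA sensor PKR (0.33), were higher, while Eif2ak4, which encodes GCN2 (-0.31), and Eef2k (-0.36) were lower. Among 10 mitochondrial translation factors, Tufm (-0.30), Tsfm (-0.35) and Gfm1 (-0.32) were lower with I209S P214L than with P214L.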
